A study of Mus musculus with 23 samples.

Results

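The 10 libraries described here are the control side of a mouse study that removed NEDD8, a small ubiquitin-like modifier, from hippocampal neurons in culture. They are the libraries whose treatment label is the virus expressing RFP, a red fluorescent protein, and they make up 10 of the 23 libraries of the series. One further RFP library, RFP3-2, was left out because 24.2% of its counts fell on a ribosomal RNA gene (95% Wilson interval 24.13 to 24.19%, which covers counting error only). The other 12 libraries received CRE and were used only to ask whether the same genes differed between the same title numbers.

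All cells came from hippocampi of newborn homozygous NEDD8cKO mice, which carry a floxed Nedd8 gene, so the RFP cultures carry the floxed alleles too and are not wild-type cultures. A lentivirus delivered RFP under the Synapsin1 promoter, which is active in neurons, so glia in the dish were not the target of the transgene. RNA was taken after 12 days in culture by the labels. The study's methods give a slightly later day. The number in the library title divides the libraries into RFP1 with 3, RFP2 with 4 and RFP3 with 3 libraries (RFP3-1, RFP3-3 and RFP3-4). The labels do not say what that number stands for or whether replicates were separate cultures. The study's legends give N = 3 for the RNA sequencing. Its methods define N as animals or biological replicates and do not tie N to the title number. Each number held libraries of both sexes by their Xist and Y-linked genes, so its replicates did not all come from the same animals, and which of the others share animals or cultures is not given. The p-values rest on the spread between libraries, which for tests between title numbers is the spread within a number. Where replicates share a culture, that is not the spread between separate cultures. Nedd8 itself, the gene that is floxed, was read in every library (lowest 43.7, median 62.0 and highest 74.0 counts per 1000000 counts of the library, CPM, with TMM scaling).

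A dissociated hippocampal culture holds glutamatergic pyramidal and granule cells, inhibitory interneurons that make GABA, and glia that proliferate in the dish, while microglia and vessel cells depend on what survives the dissection. Neurons read glutamate through AMPA, NMDA, kainate and metabotropic receptors and GABA through GABA-A and GABA-B receptors, and each receptor is assembled from subunits whose mixture sets its kinetics and its permeability to calcium. Bulk RNA gives the sum over all cells in the dish, so fewer cells of a type and less RNA per cell cannot be told apart.

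Depth ran from 9833872 to 17112815 counts per library, and 14597 of the 27839 genes detected had a count in all 10. Mitochondrial genes took 7.62 to 11.1% of counts in 9 libraries and 3.43% in RFP2-4 (95% Wilson interval 3.42 to 3.45%). RFP2-4 stood apart on the first principal component as well, with a score of 53.4 against -32.3 to 5.07 in the others. Its deviations from the mean of the 10 libraries rose with the GC content of genes (Spearman's rho 0.67 across genes, which are not independent replicates). Results that rest on RFP2-4 are given with and without it, and its part in the other results was not tested.

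Copies of sequence show why levels of single genes need care in these files. Many of the RNAs that dominate the counts come from the mitochondrial genome, and a stretch of 4650 bases on the minus strand of nuclear chromosome 1 (GRCm39, chr1:24650616-24655265) holds a copy of part of it. The first 150 bases of mt-Co2, a subunit of cytochrome oxidase, read the same at both places, so a read from one cannot be placed apart from the other.
mt-Co2 (chrM:7013-7162, + strand): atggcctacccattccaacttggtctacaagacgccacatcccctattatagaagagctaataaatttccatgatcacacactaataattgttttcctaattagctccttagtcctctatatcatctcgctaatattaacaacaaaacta
nuclear copy (chr1:24654497-24654646, - strand): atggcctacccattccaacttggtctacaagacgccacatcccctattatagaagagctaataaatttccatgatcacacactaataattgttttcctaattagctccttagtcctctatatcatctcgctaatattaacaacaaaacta
The start of mt-Nd3, a subunit of respiratory complex I, differs from its copy at 1 base, which is in capitals in both lines.
mt-Nd3 (chrM:9459-9539, + strand): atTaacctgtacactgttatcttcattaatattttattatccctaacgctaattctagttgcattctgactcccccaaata
nuclear copy (chr1:24652120-24652200, - strand): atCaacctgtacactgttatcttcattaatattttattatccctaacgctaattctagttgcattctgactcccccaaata
Over whole genes, 684 of 684 bases of mt-Co2 and 347 of 348 bases of mt-Nd3 were identical between the genome and its copy.

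The levels of these genes split the same way. To compare genes, counts were divided by the union length of the exons and scaled to 1000000 per library (TPM). The mitochondrial messengers mt-Co1 (61588 ± 13371 TPM, mean ± SD over 10 libraries) and mt-Cytb (58603 ± 11768) were the highest of all genes. Of the other mitochondrial messengers, the highest were mt-Nd1 (42876 ± 9776), mt-Nd2 (29223 ± 8652), mt-Nd6 (25244 ± 7493), mt-Nd5 (21564 ± 3766) and mt-Nd4 (19771 ± 3355). The other 6 messengers, mt-Co2, mt-Atp6, mt-Co3, mt-Atp8, mt-Nd4l and mt-Nd3, sat between 13.4 TPM for mt-Nd3 and 73.3 TPM for mt-Co2. Of the 64-base words of these 6, 98.9% for mt-Nd3 and 100% for the other 5 occurred elsewhere in the genome, against 0% for mt-Cytb, mt-Nd1 and mt-Nd6, 3.35% for mt-Nd5, 6.77% for mt-Nd2, 44.7% for mt-Co1 and 61.8% for mt-Nd4. How the authors treated reads with several matches is not given in the sources used here, so the low values of those 6 genes are uncertain as levels.

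**Figure D1:**
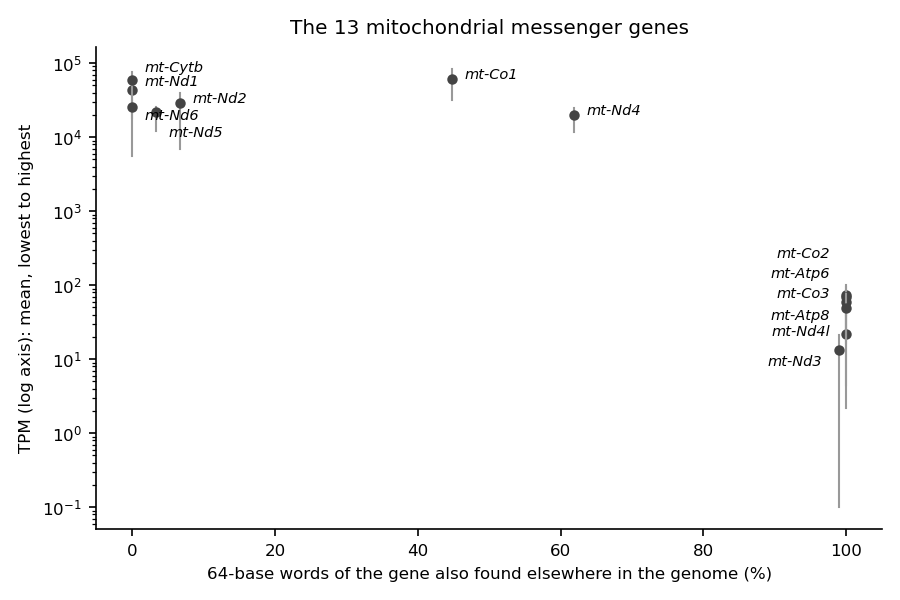
Level of each of the 13 mitochondrial messengers (TPM, log axis) against the share of its 64-base words that occur elsewhere in GRCm39 (percent), with points for means over the 10 RFP libraries and lines from the lowest to the highest library. The 6 genes at or near 100% lie at or under 73.3 TPM, and the other 7 lie at or above the 19771 TPM of mt-Nd4.

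Neurons of the mouse transcribe BC1, a short RNA made by RNA polymerase III that is carried into dendrites, and its gene was the second highest outside the mitochondrial genome. Its level varied widely (lowest 5942, median 8998 and highest 21629 TPM), and its 176 bases on chromosome 7 (GRCm39, chr7:144468199-144468374, + strand) hold an internal A-rich stretch, whose densest 25 bases, 24 of them A, are in capitals.
Bc1: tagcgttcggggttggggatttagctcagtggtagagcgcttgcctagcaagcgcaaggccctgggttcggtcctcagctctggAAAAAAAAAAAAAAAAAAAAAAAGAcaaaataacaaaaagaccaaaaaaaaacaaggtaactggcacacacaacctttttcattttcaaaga

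Of the 25 highest genes outside the mitochondrial genome, 24 are described here, led by Rn18s-rs5, a ribosomal RNA gene (30692 ± 11574 TPM), and Bc1 (10146 ± 4633). The cytoskeleton followed, with Tuba1a (5132 TPM), Actb (2867), the actin-binding Tmsb4x (2953), Tubb5 (1694) and Tubb2a (1523). Calm3 (3150.1 TPM) and Calm2 (2533), genes of the calcium sensor calmodulin, were in the list. Growth-cone and membrane proteins of neurons and glia were represented by Basp1 (2493 TPM) and Gpm6a (1884). Nnat, an imprinted membrane protein of developing neurons, had 2476 TPM.

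Genes of protein synthesis and folding in that list were Eef1a1 (2474 TPM), Eef2 (1816), Rplp1 (2394) and Hsp90ab1 (1829.8). Lipid and iron genes were Scd2, a fatty acid desaturase (2324 TPM), the lipid carriers Apoe (1507) and Fabp7 (1841), the lysosomal Psap (1572) and the ferritin chain Fth1 (1553). Ckb, a creatine kinase (1561 TPM), the selenoprotein Selenow (2642) and Mir6236 (1541) completed it. Exons of other genes cover 89.2% of Tubb2a, 45.6% of Tubb5, 41.5% of Fth1, 34.9% of Hsp90ab1 and 31.5% of Tuba1a, and 60.8% of the 64-base words of Tuba1a recur elsewhere, so their levels are uncertain. The same holds for Bc1 (40.7% of words) and Rplp1 (39.7%). The strand setting of the counting is not given in the sources used here.

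**Figure D2:**
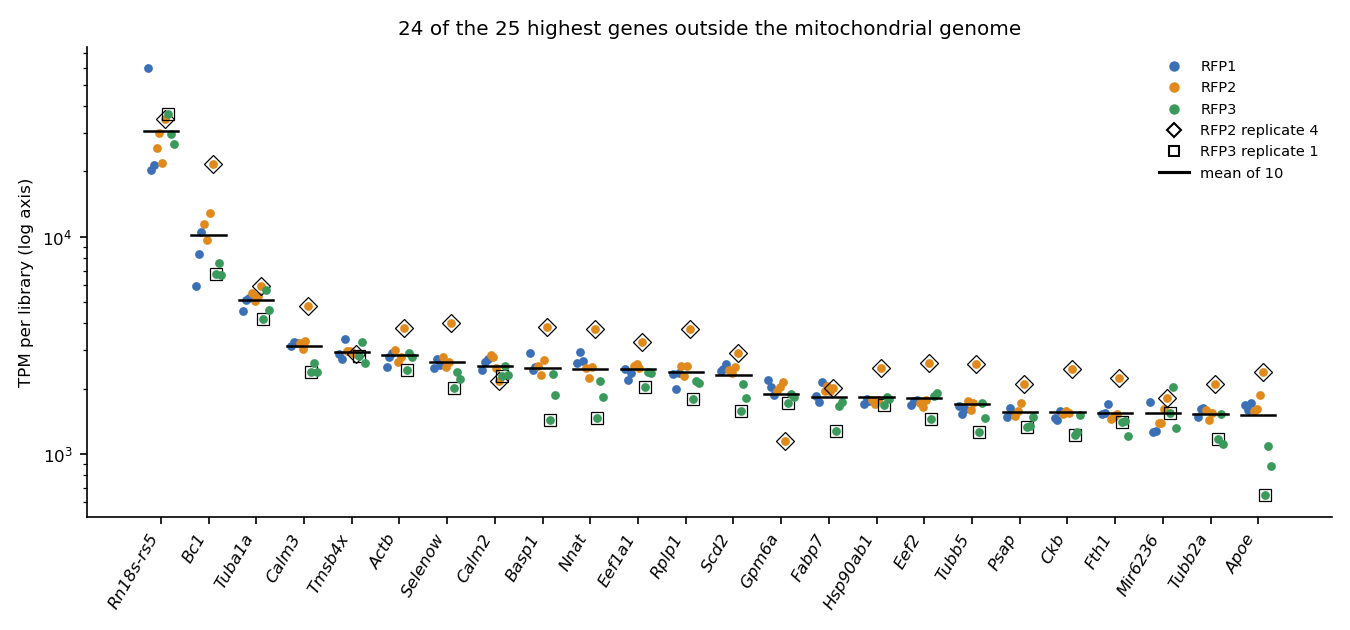
Level of 24 of the 25 highest genes outside the mitochondrial genome (TPM, log axis), one point for each of the 10 RFP libraries coloured by group, with the mean as a horizontal line and RFP2-4 and RFP3-1 outlined. Rn18s-rs5 and Bc1 lie above the other genes shown on average.

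On the mean over libraries, 16472 genes reached 1 TPM, 8966 reached 10, 1410 reached 100 and 58 reached 1000 TPM. The 10 highest genes held 31.05% of all TPM, the 100 highest 44.1% and the 1000 highest 66.4%. Mitochondrial genes set the first of these shares, with 12.8 to 37.2% of TPM over the libraries (median 29.4%). Without them and Rn18s-rs5 the 10 highest genes held 5.42%. The 86 ribosomal protein genes took 1.38 to 2.51% of TPM, with the highest value in RFP2-4, and lncRNA genes took 1.78 to 3.41%.

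The 5 markers given for the cultures were all read. Slc17a7, the vesicular glutamate transporter of forebrain excitatory neurons, had lowest 543, median 773 and highest 1329 TPM. Camk2a, a kinase of excitatory synapses, had lowest 361, median 715 and highest 959 TPM. Gad1, which makes GABA, had lowest 182, median 209 and highest 315 TPM and was the least spread of the 5. Gfap, the intermediate filament of astrocytes, had lowest 278, median 451 and highest 1229 TPM with the highest value in RFP1-3. Olig2, a transcription factor of the oligodendrocyte lineage, had lowest 57.5, median 192 and highest 290.5 TPM with the lowest value in RFP3-1. Neurons and both macroglial lineages were thus present in each library.

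Markers of excitatory and of inhibitory neurons were read in each library. The 10 glutamatergic markers summed to lowest 1657, median 2597 and highest 3792 TPM, led after Slc17a7 and Camk2a by Neurod6 (604 TPM) and Nrgn (219.5). The 14 GABA markers summed to lowest 883, median 1092 and highest 1790.2 TPM, led by Gad2 (262 TPM), the peptide Sst (228), Gad1 (226) and the transporter Slc32a1 (137). The order of Gad1 and Gad2 turned with the longest transcript as the length, when the ratio of Gad1 to Gad2 was above 1 in every library (1.66 to 2.23, against 0.749 to 1.01 with union length). Within a library, the ratio of Slc17a7 to Gad1 was lowest 1.72, median 3.71 and highest 7.17, with the highest value in RFP2-4. The 11 genes common to neurons summed to lowest 3797, median 4570.5 and highest 5479 TPM, led by Tubb3 (1131), Stmn2 (777), Syn1 (639) and Nefl (407).

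Glial genes were read at high levels. The 12 astrocyte markers summed to lowest 2217, median 4164 and highest 5326 TPM, led by Aldoc (1107), glutamine synthetase Glul (898), the glutamate transporter Slc1a2 (630.4) and Gfap (513). Genes shared by radial glia and young astrocytes summed to lowest 1982, median 2777 and highest 3258 TPM, of which Fabp7 (1841), Hopx (272), Sox2 (219) and Vim (155) were highest. The oligodendrocyte lineage summed to lowest 959, median 2085 and highest 3115 TPM, with the early factors Olig1 (1437), Olig2 (191) and Sox10 (99.3) and the progenitor receptor Pdgfra (87.6) on top. Dividing-cell genes summed to lowest 133, median 173 and highest 207 TPM, led by Pcna (50.4), Mki67 (36.3), Top2a (27.8) and Ccnb1 (17.7).

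Microglial, endothelial and blood markers were near the limit of detection. The 11 microglial markers summed to lowest 0.728, median 2.03 and highest 8.46 TPM and none of them had a mean of 1 TPM or more. P2ry12 (0.845 TPM), Csf1r (0.680), Tyrobp (0.270) and C1qa (0.258) were highest. The 9 endothelial markers summed to lowest 1.78, median 3.75 and highest 6.46 TPM, led by Kdr (1.94), Slco1a4 (0.718), Esam (0.564) and Cdh5 (0.471). The tight-junction gene Cldn5 and Ly6c1 had no count in any of the 10 libraries, nor had the choroid plexus channel Kcnj13, the red-cell genes Hba-a1 and Hbb-bt or Slc4a1. No count allows up to 0.175 to 0.305 CPM per library, 3 counts of the total. That limit holds for reads with a single match, and 90.3% of the words of Hba-a1, 40.7% of Hbb-bt and 35.2% of Ly6c1 recur elsewhere, so the zeros of these 3 genes are uncertain.

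The remaining lists held low and uneven signals. Blood genes summed to lowest 0, median 0.996 and highest 1.83 TPM, with Hba-a2 (0.380), Alas2 (0.342) and Hbb-bs (0.237) as the only ones read. Mural and mesenchymal genes summed to lowest 16.2, median 48.8 and highest 104 TPM, led by Rgs5 (17.1), Dcn (8.24), Col1a1 (7.92) and Acta2 (5.87), with the lowest sum in RFP2-4. Ependymal and choroid genes summed to lowest 16.3, median 33.5 and highest 77.4 TPM, nearly all from Foxj1 (26.2) and Ttr (6.97), beside Tmem212 (0.586) and Folr1 (0.579). The Cajal-Retzius list summed to lowest 289, median 420.1 and highest 553 TPM, but its sum came from Calb2 (311) and Cxcl14 (112), which other neurons also express, while Trp73 had 1.66 and Lhx1 0.917 TPM.

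**Figure D3:**
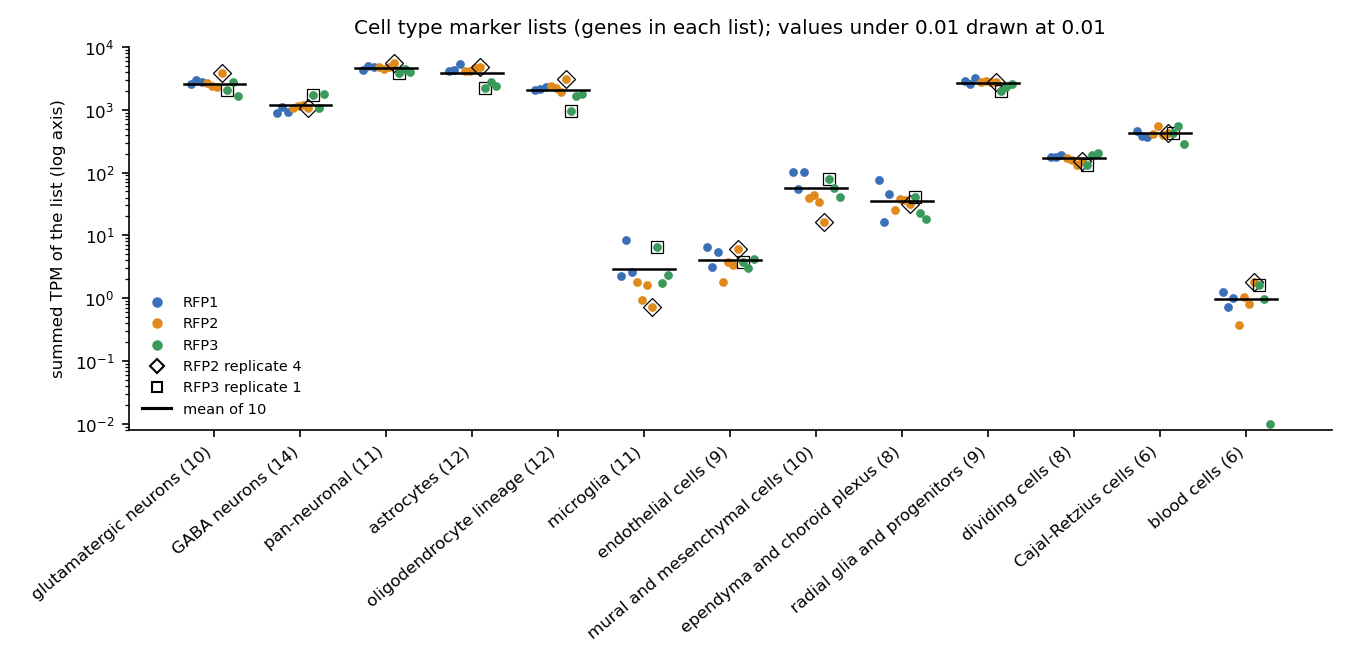
Summed TPM of each marker list in each of the 10 RFP libraries (log axis), one point per library coloured by group, with the mean as a horizontal line, RFP2-4 and RFP3-1 outlined, and the 1 library with no blood count drawn at the foot of the axis. Neuronal, astrocyte, radial glia and oligodendrocyte lists lie above 800 TPM, and microglial, endothelial and blood lists lie below 10 TPM.

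Genes that mark hippocampal fields in the adult were read for every field. At 1 TPM or more were 7 of 8 dentate genes, 7 of 7 CA3, 5 of 6 CA2 and 7 of 7 CA1 genes. Low members were Dock10 (5.24 TPM), Dsp (4.49), Tdo2 (2.07) and Lct (0.287) for the dentate, Iyd (2.21) for CA3 and Map3k15 (0.951) for CA2. These low members were named after their values were seen. The levels do not show which fields the cells came from. Dentate granule genes were led by Calb1 (56.1 TPM), Prox1 (55.8), C1ql2 (47.5) and C1ql3 (39.1). CA3 genes were led by Elavl2 (58.6 TPM), Cpne4 (54.1), Lypd1 (23.7) and Coch (21.2). CA2 genes were led by Pcp4 (208 TPM), Necab2 (86.7), Cacng5 (19.8) and Amigo2 (13.6), while Rgs14, a defining CA2 gene, had 3.92. CA1 genes were led by Nr3c2 (58.8 TPM), Mpped1 (47.0), Pou3f1 (41.1) and Wfs1 (27.3).

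Genes of neighbouring regions were read too. The list for subiculum and neocortex summed to lowest 152, median 170.5 and highest 277 TPM, beside a median of 182 for the CA3 list, and was led by Bcl11b (59.5 TPM), Fezf2 (49.5), Tshz2 (30.8) and Cux2 (20.2). Tshz2 was the most uneven of them (lowest 2.45, median 24.6 and highest 105.4 TPM). The list for striatum, thalamus and midbrain summed to lowest 17.9, median 31.3 and highest 41.6 TPM and was led by Ppp1r1b (19.6 TPM), Drd1 (5.05), Tcf7l2 (3.81) and Gbx2 (1.61). Several of these genes are also transcribed in hippocampal neurons, so the lists do not show what the dissections contained.

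Within a receptor or channel family, subunits were put in order of mean TPM and each was compared with the next by a two-sided exact permutation test that flips signs of the log2 ratio over the 10 libraries. Of 113 neighbouring pairs in 23 families, 72 differed at an adjusted p (Benjamini-Hochberg over all pairs) under 0.05, and 70 of those held the same direction in RFP1, RFP2 and RFP3. The smallest adjusted p this test can give here is 0.0046. The test treats the 10 libraries as separate samples, although they fall in 3 groups. The length chosen for a gene bears on these steps: with the longest transcript in place of the union of exons, 13 of the called pairs were no longer called and 8 further pairs were.

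Gria1 led the AMPA receptor genes. It had lowest 351, median 395 and highest 451 TPM, Gria2 had lowest 59.3, median 97.8 and highest 112 TPM, and the log2 ratio of Gria1 to Gria2 was 2.10 ± 0.29 (SD, n = 10, adjusted p = 0.0046, higher in 10 of 10 libraries). Gria2, whose edited subunit keeps calcium out of the channel, thus stood second, before Gria3 (38.3 TPM) and Gria4 (25.3), and both further steps were called, the second of them only with union length (with the longest transcript log2 ratio 0.23, adjusted p = 0.0895). Gria1 made up 71.6 ± 2.71% of the 4 subunits. With the longest transcript as the length that share was 57.6%, and the ratio of Gria1 to Gria2, at lowest 3.64, median 4.04 and highest 7.20 with union length, had a median of 2.11. RFP2-4 alone held the value of 7.20.

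The auxiliary proteins that escort AMPA receptors were led by Cnih2 (754 ± 166 TPM), far above Cacng7 (157) and Cacng4 (147). A stretch of neighbours that did not differ beyond their spread followed, from Cacng8 (103 TPM) through Shisa9 (97.5), Shisa6 (76.5) and Shisa7 (75.8) to Cacng2 (70.0). Cnih3 (52.3 TPM), Cacng5 (19.8), Cacng3 (19.7) and Gsg1l (16.7) closed the order, with no called step from Cacng5 to Cacng3. With the longest transcript the step from Cacng7 to Cacng4 was called (log2 ratio 0.33, adjusted p = 0.0155) and that from Cacng2 to Cnih3 was not (0.05, adjusted p = 0.771). The ratio of Cacng8 to Cacng2 was lowest 0.525, median 1.77 and highest 2.25. Its medians were 2.08 in RFP1, 1.77 in RFP2 and 0.753 in RFP3. Cacng2 was the higher gene in RFP3-1 (0.753) and RFP3-4 (0.525) and Cacng8 in RFP3-3 (1.23). This ratio was not tested between the groups.

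NMDA receptors held the juvenile GluN2B subunit in front. Grin2b (112 ± 11.3 TPM) exceeded the obligatory Grin1 (66.9 ± 13.5) by 0.76 ± 0.34 on the log2 scale (SD, n = 10, adjusted p = 0.0046), but with the longest transcript as the length that order turned (log2 ratio -0.18). Grin2a (31.8 TPM), the mature subunit, followed, then Grin3a (23.5), Grin2d (12.6), Grin2c (3.24) and Grin3b (1.00). The ratio of Grin2a to Grin2b was lowest 0.224, median 0.283 and highest 0.342, below 1 in every library, and the step from Grin2a to Grin3a also turned with the longest transcript (-0.00198 on the log2 scale).

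Kainate receptors were led by Grik5 (87.0 TPM), a high-affinity subunit, then Grik3 (39.1), Grik1 (22.8), Grik2 (18.6) and Grik4 (12.95). Grik1 and Grik2 did not differ beyond their spread (adjusted p = 0.249), and the step from Grik3 to Grik1 was not called with the longest transcript (log2 ratio 0.07, adjusted p = 0.785). Among metabotropic receptors the group I receptor Grm5 (152 ± 19.0 TPM) was well above Grm7 (37.5), and Grm2 (15.7), Grm3 (15.3) and Grm4 (11.6) could not be ordered. Grm8 had 1.60 TPM and Grm6, the receptor of retinal bipolar cells, had no count.

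Of the GABA-A receptor genes compared, Gabra2 (213 ± 44.2 TPM), an alpha subunit, exceeded Gabra5 (109 ± 14.0), the alpha subunit of many extrasynaptic receptors of the hippocampus, by 0.95 ± 0.35 on the log2 scale (SD, n = 10, exact permutation test, adjusted p = 0.0046). Gabrb1 (82.7 TPM) followed below a called step, and Gabrb2 (52.0) and Gabra3 (49.7) below another, with no called step between them. Gabra4 (35.0 TPM), Gabrg3 (18.7), Gabrd (7.09) and Gabrg1 (5.27) followed, with no called step from Gabrd to Gabrg1. Gabra6, which marks cerebellar granule cells, and Gabrp had no count.

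Both GABA-B subunits were read, with Gabbr1 (241 TPM) above Gabbr2 (185) by a ratio of 1.31 (1.10 to 1.54). The chloride transporters, which set whether GABA inhibits, favoured the extruder Slc12a5 over the importer Slc12a2 by lowest 7.78, median 10.9 and highest 28.3, with the highest value in RFP2-4 and at most 15.0 in the others. Of the glycine receptor genes Glrb (54.4 TPM) and the immature-type Glra2 (49.2) had no called step between them with union length (adjusted p = 0.130) and one with the longest transcript (log2 ratio 0.76, adjusted p = 0.0047). The adult spinal subunit Glra1 had no count.

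Nicotinic and muscarinic acetylcholine receptor genes were both read. Chrnb2 (48.8 TPM) and Chrna4 (35.8) led the nicotinic genes, before Chrna7 (9.90), Chrna5 (4.71), Chrnb1 (2.21) and Chrna3 (2.06). Neither the step from Chrna5 to Chrnb1 nor that from Chrnb1 to Chrna3 was called. Chrm1 (113 TPM) led the muscarinic receptors, each step of which was called, with Chrm4 (53.2), Chrm3 (27.0), Chrm5 (9.004) and Chrm2 (3.90) behind.

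Among monoamine receptors, serotonin Htr1a (43.9 TPM) was followed by the interneuron channel Htr3a (28.6), then Htr2c (19.6), Htr7 (16.8), Htr2a (12.7), Htr6 (10.9), Htr5a (3.58), Htr4 (3.35) and Htr1b (1.86). No step from Htr3a through Htr6 was called with union length, nor was that from Htr5a to Htr4. The step from Htr1a to Htr3a did not have the same direction in all 3 groups. Adrenergic Adra2a (40.3 TPM), Adrb1 (27.1) and Adra2c (24.1) led the last receptor family, before Adra1b (10.5), Adra1d (5.85), the dopamine receptor Drd1 (5.05) and Adra1a (1.92), and the step from Adra2a to Adrb1 also changed direction between groups. Neither the step from Adrb1 to Adra2c nor that from Adra1d to Drd1 was called. With the longest transcript the steps from Adra2a to Adrb1 (log2 ratio 0.32, adjusted p = 0.140) and from Drd1 to Adra1a (0.35, adjusted p = 0.399) were not called, and that from Htr2c to Htr7 was (1.10, adjusted p = 0.0047). Drd3 had no count.

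**Figure D4:**
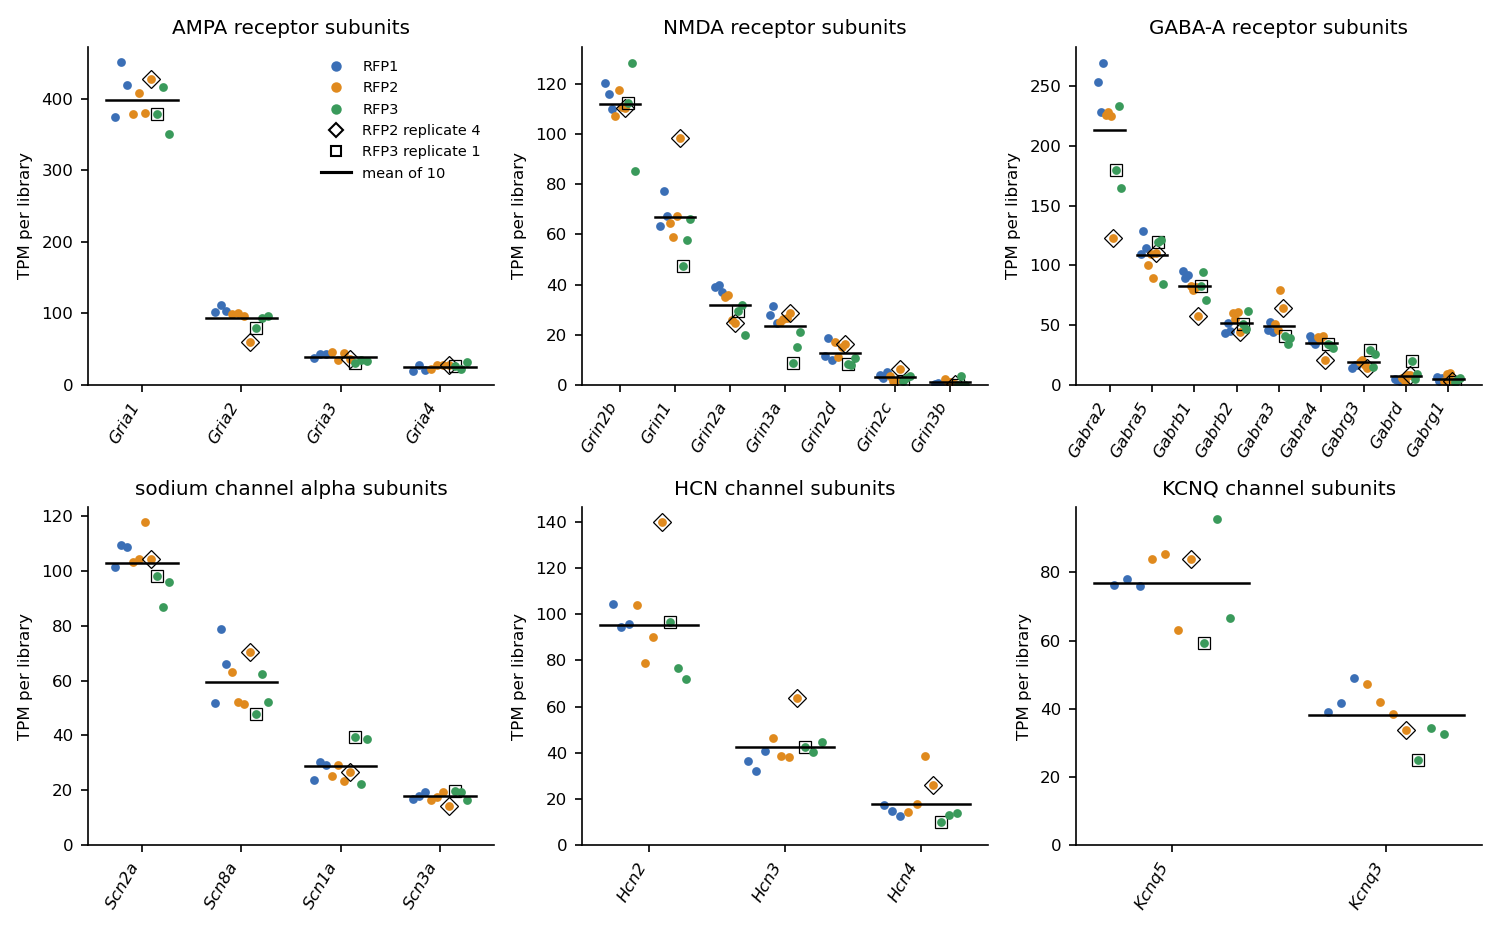
Level of the subunits of 6 receptor and channel families (TPM, linear axis from 0), one point for each of the 10 RFP libraries coloured by group, with the mean as a horizontal line and RFP2-4 and RFP3-1 outlined. Gria1 lies above Gria2, Grin2b above Grin2a, and Gabra2 above Gabra5 in all 10 libraries.

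Sodium channels were led by Scn2a (103 ± 8.46 TPM), which serves immature axons, over Scn8a (59.7 ± 10.1), the channel of mature initial segments, by a ratio of 1.74 (1.39 to 2.29). Scn1a (28.9 TPM) and the embryonic Scn3a (17.8) followed. Scn2b (175 TPM), a beta subunit, stood above Scn3b (127) by a step that was called with union length and not with the longest transcript (log2 ratio 0.20, adjusted p = 0.119).

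Calcium channel pores were led by the N-type Cacna1b (58.9 TPM), before the T-type Cacna1h (44.5), the R-type Cacna1e (34.9), the P/Q-type Cacna1a (26.4), the L-type Cacna1c (21.5), Cacna1g (18.2), Cacna1i (16.1) and Cacna1d (8.70). The lead rests on the length, since with the longest transcript the step from Cacna1b to Cacna1h was not called (log2 ratio 0.06, adjusted p = 0.598) and the order of Cacna1h and Cacna1e turned (log2 ratio -0.01). The steps from Cacna1e to Cacna1a and from Cacna1i to Cacna1d lost their call too, at log2 ratios of 0.16 and 0.19, and that from Cacna1g to Cacna1i was called (0.44, adjusted p = 0.0461). Cacnb3 (144 TPM) led the beta subunits over Cacnb1 (73.2), Cacnb4 (41.4) and Cacnb2 (11.1). Cacna2d1 (36.7 TPM), Cacna2d2 (27.4) and Cacna2d3 (10.6) were the alpha-2-delta subunits at or above 1 TPM, and 36.3% of the words of Cacna2d1 recur elsewhere. The step from Cacna2d1 to Cacna2d2 was called only with the longest transcript (log2 ratio 1.25, adjusted p = 0.00803).

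Voltage-gated potassium channels formed a flat order. Kcnd2 (88.2 TPM), Kcna1 (85.4), Kcnd3 (80.6), Kcnc1 (72.6), Kcna6 (66.8), Kcna2 (59.0), Kcnc4 (57.6), Kcnc2 (48.9) and Kcna4 (44.7) showed no called step among them, which does not show that their levels are equal. With the longest transcript the steps from Kcnc1 to Kcna6 (log2 ratio 0.44, adjusted p = 0.0047) and from Kcnc2 to Kcna4 (0.35, adjusted p = 0.028) were called. Below a called step came Kcna3 (15.6 TPM), Kcnd1 (14.8), Kcnb2 (5.36) and Kcna5 (2.00), with no called step from Kcna3 to Kcnd1. Of the M-current genes, Kcnq5 (76.8 TPM) stood above Kcnq3 (38.3) by a called step.

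The pacemaker channels compared were ordered Hcn2 (95.3 TPM), Hcn3 (42.4) and Hcn4 (17.8), each step called. Kcnj10, the inward rectifier of astrocytes, had 379 ± 104 TPM, above the neuronal Kcnj3 (128), Kcnj4 (96.1) and Kcnj11 (33.8), and Kcnj9 (16.8), Kcnj16 (15.4), Kcnj2 (8.51), Kcnj6 (5.71) and Kcnj12 (5.00) were lower. No step from Kcnj9 through Kcnj12 was called with union length. With the longest transcript the step from Kcnj3 to Kcnj4 was not called (log2 ratio 0.30, adjusted p = 0.119) and that from Kcnj6 to Kcnj12 was (0.99, adjusted p = 0.0221). The leak channel Kcnk1 (142 TPM) led Kcnk9 (43.1), Kcnk2 (35.5), Kcnk10 (26.1), Kcnk4 (8.31), Kcnk3 (8.19), Kcnk12 (4.45) and Kcnk13 (1.45). Of these steps, those from Kcnk9 to Kcnk2 and from Kcnk4 to Kcnk3 were not called. Of the calcium-activated channels Kcnma1 (60.8 TPM) was highest, before Kcnn3 (14.6), Kcnn1 (14.1), Kcnt1 (12.7), Kcnn2 (12.5) and Kcnt2 (4.24). None of the steps from Kcnn3 through Kcnn2 was called.

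Exons of another gene cover over 20% of the exons of Kcna6, Kcna3, Hcn3, Neurod6, Nrgn, Nefl, Hopx, Pcna, C1ql3, Pcp4, Wfs1, Grin3b and Adra1d, so part of their counts may belong to the neighbour.

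Genes that varied most among the libraries were ranked by the SD of log2 CPM above the trend of SD on level, among 11265 genes with a mean of at least 5 CPM, whose median SD was 0.29. The ranking uses these values, so no test is given. First came genes that tell the sex of the tissue. Xist, the RNA of the inactive X chromosome, was at 456 to 622 CPM in RFP1-1, RFP1-2, RFP2-3, RFP3-1 and RFP3-4 and at 0 in the other 5. The Y-linked Ddx3y, Kdm5d and Eif2s3y summed to 53.0 to 139 CPM in those other 5 and to 0 in the first. No library held both, and each of the groups RFP1, RFP2 and RFP3 held libraries of both kinds.

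A second set was extracellular matrix. Col3a1 was 31.3, 2.701 and 22.1 CPM in RFP1, 4.30, 3.88, 4.09 and 0.0884 in RFP2 and 21.9, 19.0 and 5.92 in RFP3, each in replicate order. Col1a2 (lowest 0.177, median 8.47 and highest 23.3 CPM), Col8a1 (lowest 0, median 3.42 and highest 37.7 CPM) and the small proteoglycan Fmod (lowest 0.619, median 10.7 and highest 58.9 CPM) had their lowest values in RFP2-4. Apod, a lipocalin, ran from 0.530 CPM in RFP2-4 to 38.5 in RFP3-1. These genes were high in RFP1-1, RFP1-3, RFP3-1 and mostly RFP3-3. The mural and mesenchymal list, highest in RFP1-3 (104 TPM) and lowest in RFP2-4 (16.2), holds Col3a1 and Col1a2 itself. Its sum is therefore not a separate observation. Without RFP2-4, Col8a1 moved from rank 6 to 10, Col3a1 from 7 to 32, Apod from 10 to 17, Fmod from 11 to 22 and Col1a2 from 12 to 40. Their source was not tested.

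The rest of the 15 are given one by one. The mitochondrial tRNA genes mt-Te and mt-Tp were 46.1 to 102 and 65.0 to 119 CPM in 9 libraries, and 0 and 1.94 CPM in RFP2-4. Without RFP2-4 they fell to ranks 1066 and 2083. Plxnb3, a plexin of the oligodendrocyte lineage, was 0.205 CPM in RFP3-1 and 8.13 to 34.7 CPM in the others. The desmocollin Dsc3 was 38.7 CPM in RFP2-3 and at most 6.98 elsewhere. Spp1, a secreted phosphoprotein, and Tshz2 ran from 0.0884 to 25.6 CPM and from 5.23 to 169 CPM, and Spp1 moved from rank 13 to 21 without RFP2-4. Of the 15, Spp1 (77.1%) and Dsc3 (72.9%) had the largest shares of their log2 variation between RFP1, RFP2 and RFP3. The median share over the 11265 genes was 22.2%.

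**Figure D5:**
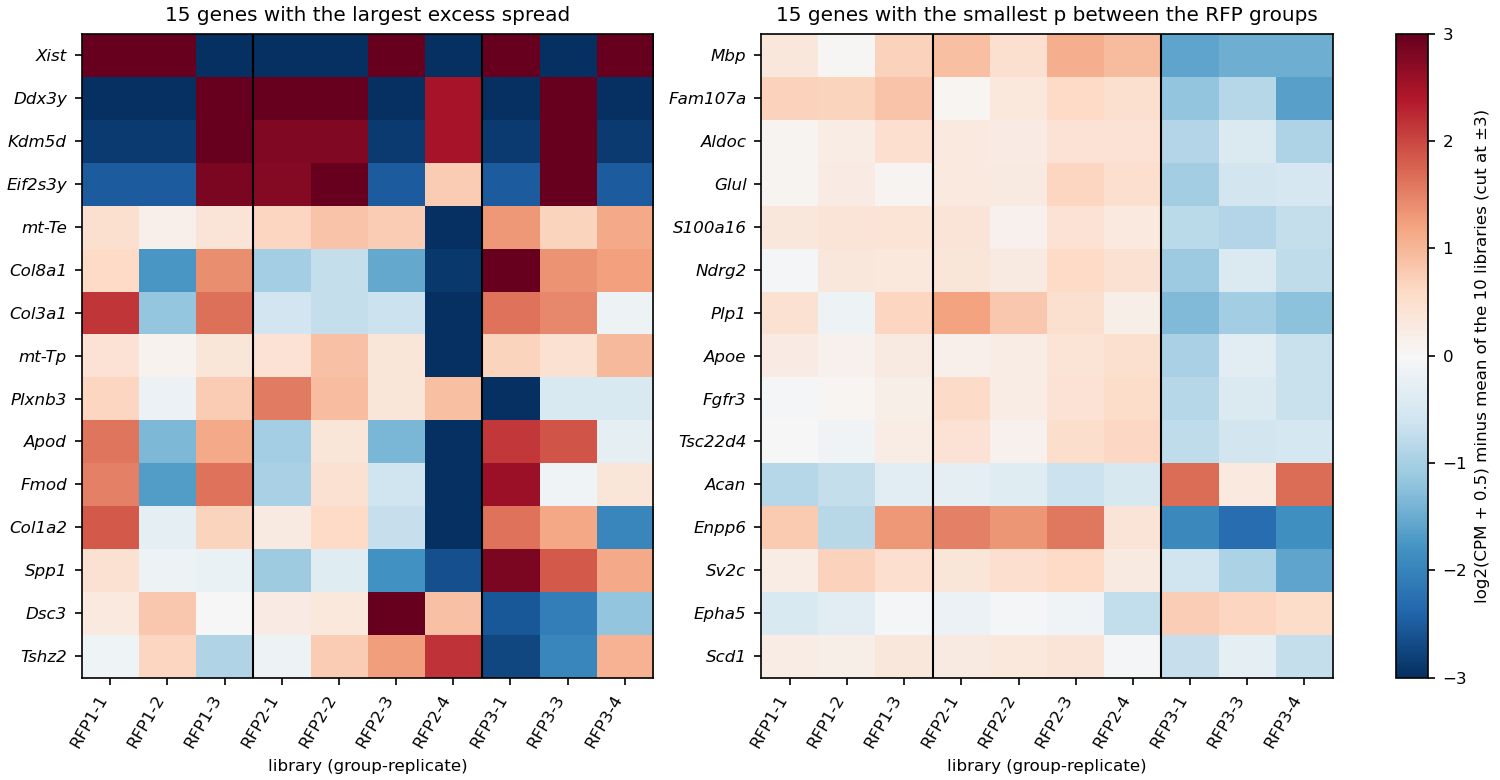
Colour gives log2(CPM + 0.5) of a gene in a library minus its mean over the 10 RFP libraries, limited to 3 in either direction, with libraries as columns and groups parted by vertical lines. The left panel holds the 15 genes that varied most and the right panel the 15 with the smallest p between RFP1, RFP2 and RFP3. Xist and the Y-linked genes split the libraries 5 and 5, and mt-Te and mt-Tp are low in RFP2-4 only, while on the right Mbp, Aldoc and Glul are low and Acan and Epha5 high in the RFP3 libraries.

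The only label that divides the libraries is the number in their titles, and the genes that differed by it included glial genes lower in RFP3 and a few interneuron genes higher in RFP3. With edgeR's quasi-likelihood F-test across all genes, 84 of 15488 genes (0.542%) differed between RFP1, RFP2 and RFP3 at an adjusted p under 0.05. Of these, 62 (0.400% of genes) were lower in RFP3 than in both others, 21 (0.136%) were higher, and Neat1, a nuclear lncRNA, was lowest in RFP2. The share of mitochondrial counts moved with the same division, at 11.1, 9.12 and 9.58% in RFP3-1, RFP3-3 and RFP3-4 and at most 8.56% in RFP1 and RFP2, and its part in the differences was not tested.

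The calls lean on single libraries. Without RFP3-1 only 9 genes were called (Aldoc, Apoe, Fam107a, Glul, Mbp, Ndrg2, S100a16, Selenop and Sv2c), and without RFP3-4 there were 19, without RFP2-4 209, without RFP3-3 169, without RFP1-3 48, without RFP2-3 38 and without RFP2-1 40. The lists described next were chosen with earlier results of these data known.

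Of the 12 oligodendrocyte lineage genes, 5 were called and lower in RFP3, beside 0.400% of all genes, and none was called and higher. Mbp, the myelin basic protein gene, was 65.9, 53.3 and 83.8 CPM in RFP1, 97.6, 72.3, 110.01 and 101 in RFP2 and 16.9, 18.3 and 18.3 in RFP3, with no overlap between RFP3 and the others, as for most called genes. It was -1.92 ± 0.20 on the log2 scale against RFP1 and -2.41 ± 0.19 against RFP2 (± SE, edgeR F-test adjusted p = 7.8e-06). The median of the list was -1.04 against RFP1 and -1.20 against RFP2, beside 0.00247 and 0.01 over all genes tested.

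Of the 12 astrocyte genes, 5 were called and lower in RFP3, beside 0.400% of all genes, and none was called and higher. The medians of the list were -0.77 and -0.77 on the log2 scale. Aldoc, a glycolytic enzyme of astrocytes (GRCm39, chr11:78213619-78218889), was 1206, 1328 and 1623 CPM in RFP1, 1388, 1359, 1550.0 and 1531 in RFP2 and 618, 845 and 604 in RFP3. Its log2 change was -1.01 ± 0.14 against RFP1 and -1.08 ± 0.13 against RFP2 (edgeR adjusted p = 8.6e-04). Glul (chr1:153775690-153785469) was 820.3, 925 and 826 CPM in RFP1, 953, 938, 1224 and 1111 in RFP2 and 376, 529 and 550.1 in RFP3. Both genes separated RFP3 from the other libraries, as did most called genes.

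Further genes that led the pairwise comparisons were lower in RFP3 too. Fam107a (chr14:14151750-14173507), an actin-associated stress gene, was 95.2, 94.6 and 107 CPM in RFP1, 62.1, 73.7, 90.1 and 82.2 in RFP2 and 25.9, 32.5 and 19.0 in RFP3, a log2 change of -1.94 ± 0.20 and -1.58 ± 0.19 (edgeR adjusted p = 1.5e-04). Ndrg2, an astrocyte gene, changed by -0.95 ± 0.15 and -1.17 ± 0.15. S100a16, a calcium-binding protein, changed by -1.19 ± 0.16 and -1.13 ± 0.15, and Sv2c, a synaptic vesicle protein, by -1.50 ± 0.24 and -1.45 ± 0.23. None of these genes overlapped between RFP3 and the others. That adds little to their calls, since 94.0% of the 84 called genes did not overlap, beside 5.11% of all genes tested.

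Among the interneuron genes, 2 of 13 tested were called and higher in RFP3, beside 0.136% of all genes. Reln, a secreted glycoprotein, was 135, 197 and 148 CPM in RFP1, 171, 175, 203 and 119.7 in RFP2 and 453, 259 and 541 in RFP3 (edgeR adjusted p = 0.025). Lhx6, a factor of interneurons from the medial ganglionic eminence, was 86.5, 88.7 and 96.5, 107, 122, 111 and 85.8 and 175, 141 and 149 CPM (edgeR adjusted p = 0.0334). Cort, a neuropeptide of interneurons, was the 1 gene called of 12 tested in the neuropeptide list, beside 0.542% of all genes. It was 97.9, 16.7 and 70.8 CPM in RFP3 and at most 16.6 in the other groups (edgeR adjusted p = 0.0388), with RFP3-3 close to them. Reln, Lhx6 and Cort were not among the 9 genes called without RFP3-1. No glutamatergic marker was called. The median log2 change of the glutamatergic list in RFP3 was -0.11 against RFP1 and -0.33 against RFP2. For the GABA list it was 0.77 and 0.54, beside 0.00247 and 0.01 over all genes tested.

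Of 142 receptor and channel genes tested, 1 was called (0.704%), a share near that of all genes (0.542%). It was the AMPA auxiliary gene Cnih3, which was higher in RFP3. Of 7 dentate genes tested 1 was called, C1ql2, and of 11 pan-neuronal genes 1, Nefm. Both were lower in RFP3, beside 0.400% of all genes. These 3 genes were named after their values were seen.

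Between pairs of groups, RFP3 against RFP2 gave 136 genes (0.878%), 23 higher in RFP3 (0.149%) and 113 lower (0.730%). RFP3 against RFP1 gave 37 (0.239%), 7 higher in RFP3 (0.0452%) and 30 lower (0.194%). RFP2 against RFP1 gave 0 with edgeR (0.00%), 636 at an unadjusted p under 0.05, and 3 with DESeq2. The smallest p-values there belonged to Neat1, at -1.48 ± 0.28 on the log2 scale (edgeR adjusted p = 0.746), the lncRNAs 4732496C06Rik and Gm48027, the glycosyltransferase Alg1 and Mamdc2. Alg1 was 1.96 ± 0.44 and 4732496C06Rik -2.47 ± 0.54, both at an adjusted p of 0.999 in edgeR. Mamdc2 was -2.76 ± 0.68, and Gm48027 was 1.37, 1.05 and 2.32 CPM in RFP1 and at most 0.0592 in RFP2, with the same adjusted p in edgeR.

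In 60 of the 84 genes all RFP3 libraries lay below all others and in 19 above, against 5.11% of all genes tested. These counts use the libraries of the test. The left-out library RFP3-2, which the test did not use, lay below the means of both RFP1 and RFP2 for 61 of 62 genes that were lower and above both for 21 of 21 that were higher, beside 47.3% and 36.6% of all genes. Mbp in it was 23.5 CPM and Aldoc 421.

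The CRE libraries carry the same numbers in their titles. Between CRE1, CRE2 and CRE3, without CRE3-3, which the study's methods name as removed, edgeR called 0 of 16039 genes (0.00%), and 693 at an unadjusted p under 0.05. Of the 60 genes lower in RFP3 that this fit of 11 libraries held, 32 (53.3%) were lower in CRE3 than in both other groups, beside 33.6% of all genes, and 13 of 21 (61.9%) were higher, beside 34.5%. Without CRE1-3 as well, which the methods also name, edgeR called 79 of 16015 genes (0.493%), and 33 of 60 genes (55.0%) were lower in CRE3, beside 36.3% of all genes. In that fit 1 of the 21 higher genes, Reln, and 2 of the 60 lower genes, the membrane linker Ezr and the desaturase Scd1, were called with the same direction in CRE3 as in RFP3. Ezr and Scd1 were named after their values were seen. The common biological coefficient of variation was 0.322 in the RFP fit and 0.448 in the CRE fit.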

How the data were processed

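RNA was sequenced from stranded mRNA libraries. Per the labels and the submitters' processing notes, the authors converted reads with bcl2fastq 2.20.0.422, aligned them to GRCm39 with STAR 2.7.8a and counted them per Ensembl gene with featureCounts 1.5.0-p1. The deposited values are raw counts per gene for 56941 genes, whose names for 56323 came from GENCODE. The strand and multi-match settings are not given in the sources used here.

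The members and gene lists were chosen with earlier results of these data known. Of 441 list genes, 1 could not be matched. Some genes are not reported here, and they were left out of the lists, family orders and ratios but not of the fits. TPM were computed from counts and union exon length, and CPM with TMM factors. Groups were compared with the quasi-likelihood F-test of edgeR 4.0.16 in R 4.3.3 (robust, genes passing filterByExpr), with Benjamini-Hochberg adjustment over all genes. A prior count of 2 was used for the log2 CPM of the ranking by spread, the principal components and the deviations set against GC content. DESeq2 1.42.0 was an alternative, as were RLE size factors, no filter, a GC trend removed, a replicate block and each library left out. Values were summarised and plotted with Python 3.11.15, pandas 2.3.3, numpy 2.4.6 and matplotlib 3.10.9. Sequence words of 64 bases were searched on both strands of GRCm39.

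Genes were named by rule: the 25 with the highest mean TPM outside the mitochondrial genome, the mitochondrial messengers, up to 4 members of each list with the highest mean TPM, markers at 0 in all libraries, every family subunit at 1 TPM or more, the 15 that vary most, and the 5 with the smallest p in each pairwise contrast. A further part, genes also called in the fit of 11 CRE libraries, named none. In data simulated for the 3 RFP groups (15488 genes, of which 15019 passed the filter), the test called 45 of 100 genes changed by 1 and 84 of 100 changed by 2 on the log2 scale, with 9 unchanged genes called. Replicates of a group differed by more than sampling noise in every pair (chi-square per degree of freedom 12.8 to 59.7), so no library was treated as a second deposit of another; this does not show that they came from separate cultures.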

Additional observations from a re-analysis of the deposited data

Results flagged for a closer look

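Of 83 per-library values checked, 23 had 1 library with a gap to its nearest neighbour above Dixon's critical value for 10 libraries, a level that chance alone passes in about 5% of groups. The 5% does not hold for the log2 CPM of 15 genes among the values, which were chosen for their spread over these libraries. Nor are the 83 values independent, since summed TPM shift together with the mitochondrial share. RFP2-4 was the library apart in 18 of the 23. Its share of mitochondrial counts was 3.43% (others 7.62 to 11.1%), the summed mitochondrial messengers were 117806 TPM (others 239555 to 336281) and its 100 highest genes held 17.7% of counts (others 20.3 to 23.3%). Its ribosomal protein genes were at 1.11% (others 0.758 to 0.870%). The tRNA genes mt-Te and mt-Tp were at a log2 CPM of -1 and 1.29 there (an offset of 0.5 CPM gives the first value for no count).

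The same library was high for several neuronal families in summed TPM. AMPA auxiliary proteins reached 2165 (others 1224 to 1697), GABA-B subunits 566 (374 to 472) and calcium channel beta subunits 379 (243 to 274). Muscarinic receptors reached 316, kainate subunits 255, HCN channels 229.7, the CA1 list 319.8 and the subiculum and neocortex list 277 TPM. Glycine receptor genes were low there, at 63.9 TPM (others 97.1 to 127). Its ratios of Gria1 to Gria2 (7.20), Slc12a5 to Slc12a2 (28.3) and Slc17a7 to Gad1 (7.17) were the highest of the 10. Its lower mitochondrial share raises the TPM of all other genes in it, and the part of GC content in these values was not tested.

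Other libraries stood apart singly. RFP1-1 had 2.62% of counts on Rn18s-rs5 (others 0.856 to 1.74%) and 77.4 TPM of ependymal and choroid genes (others 16.3 to 45.3). RFP1-2 had 1038 TPM of immediate early genes (others 590.4 to 821). RFP1-3 had a ratio of Gfap to Slc17a7 of 1.499 (others at most 0.862) and RFP3-1 a log2 CPM of Plxnb3 of -0.50 (others at least 3.11). The left-out RFP3-2 had 24.2% of counts on Rn18s-rs5.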

How the results depend on the processing

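The counts of genes that differ between groups depended on the settings, and the causes were not tested. Against 84 genes, the F-test gave 238 with RFP3-2, 465 with no filter on low counts, 294 with DESeq2's likelihood ratio test, 176 with the GC trend removed and 61 with a replicate block, of which 53 were among the 84. RFP3 against RFP1 (37) gave 148, 259, 208 and 158 under the first 4 of these and 42 with the block, RFP3 against RFP2 (136) gave 336, 428, 332, 209 and 99, and RFP2 against RFP1 (0) gave 27 with no filter and 3 with DESeq2. Same-numbered replicates did not deviate together (correlations -0.20 to 0.17 over 8 pairs), so the number was not taken as a pairing. Leaving out each library gave 9 to 209 genes for the F-test, 6 to 208 for RFP3 against RFP1, 25 to 231 for RFP3 against RFP2 and 0 to 0 for RFP2 against RFP1. The CRE groups gave 0 genes with all 12 libraries (495 at an unadjusted p under 0.05) and 79 without CRE1-3.

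With the longest transcript as the length, the median ratio was 2.11 for Gria1/Gria2, 0.899 for Cacna1a/Cacna1b, 1.88 for Gad1/Gad2 and 2.72 for Dlg4/Dlg3, against 4.04, 0.457, 0.847 and 1.48. The order of Gad1 and Gad2 thus turned. So did that of Grin2b and Grin1 (log2 ratio -0.18), Grin2a and Grin3a (-0.00198) and Cacna1h and Cacna1e (-0.0106), and of all pairs of neighbours 13 lost and 8 gained a call. The 10, 100 and 1000 highest genes held 24.7, 37.8 and 62.3% of TPM with that length, and 5.42, 19.0 and 50.7% without mitochondrial genes and Rn18s-rs5, when 2187 genes reached 100 TPM. Of the 30 genes that vary most, 6 remained with the coefficient of variation, 18 to 28 with a library left out and 27 with a prior count of 0.5. Depth limits what is said of the microglial, endothelial and blood lists, whose genes had few counts.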

Other observations

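Genes of cholesterol synthesis, activity and stress were read in all cultures. Hmgcs1, which starts the sterol pathway, had lowest 607, median 902 and highest 977 TPM, above Cyp51 (186), the feedback gene Insig1 (184) and Sqle (156). The chaperones Hsp90aa1 (859 TPM) and Hspa5 (385) led the stress genes before Dnajb1 (73.2) and Hsph1 (68.3), and 44.2% of the 64-base words of Hsp90aa1 recur elsewhere. Glycolysis and hypoxia genes were led by Aldoa (794 TPM), Ldha (245), Pgk1 (222) and Vegfa (119.7), and 64.9% of the words of Pgk1 recur elsewhere. Among immediate early genes the orphan receptor Nr4a3 (187 ± 30.8 TPM) was highest, before Egr3 (83.8), Egr1 (69.3) and Fosl2 (66.0).

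Interferon response genes were low, with Ifi27 (7.08 TPM), Ifit3 (3.46), Isg15 (2.21) and Bst2 (1.58) among them. Neuropeptide genes were led by Sst (lowest 112, median 192 and highest 472 TPM) and Cort (lowest 45.2, median 70.9 and highest 514 TPM), with Cck (53.5) and Tac1 (23.6) behind. Matrix genes were led by Sparc (115 TPM), Col4a2 (28.6), Col4a1 (25.1) and Dcn (8.24). The sex-linked list held Uty (2.14 TPM) beside Xist, Ddx3y and Kdm5d.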
